A study of Mus musculus with 4 samples.

Results

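This account covers the open chromatin of 10 genes for Fc receptors, C-type lectins and related activating or inhibitory receptors in mouse neutrophils, namely Fcgr3, Fcgr4, Fcgr2b, Fcer1g, Clec4d, Clec4e, Clec7a, Pirb, Trem1 and Trem3. Their peaks were chosen by the gene name that the deposited table gives to each peak, distal peaks included, which yielded 26 of 23595 consensus peaks for 9 of the 10 genes. No peak of the table used here carried the name Fcgr2b. The assay was ATAC-seq: the Tn5 transposase cuts and tags DNA where chromatin is open, so a site with more reads was more accessible. Neutrophils were sorted from the bone marrow of Morrbid-deficient mice on a C57BL6 background (KO, 2 libraries) and of wild-type C57BL6 mice (WT, 2 libraries). Morrbid, on chromosome 2, produces a non-coding transcript known to limit the death of neutrophils, eosinophils and monocytes by repressing the gene of Bim. Setting KO against WT asks whether the loss of Morrbid altered accessibility at these receptor genes. Per genotype, 50000 cells entered the transposition, done in duplicate, and no separate animals are named. The p-values therefore rest on a spread between libraries that may be technical. The labels state neither the age of the mice nor the kind of Morrbid deletion.

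Neutrophils meet antibody-coated particles through Fc gamma receptors and fungal or damaged-cell ligands through C-type lectins. Most activating members carry little signalling sequence of their own and pair with an adaptor that holds an immunoreceptor tyrosine-based activation motif (ITAM), which recruits the kinase Syk once Src-family kinases have phosphorylated it. The inhibitory members carry the opposing motif (ITIM) and recruit the phosphatases SHP-1 or SHIP-1. In mice, Fcgr3 and Fcgr4 encode the activating receptors FcγRIII and FcγRIV, Fcer1g encodes their shared gamma chain, and Fcgr2b encodes the inhibitory FcγRIIB. Clec4d (MCL) and Clec4e (Mincle) bind mycobacterial glycolipids, and Clec7a (Dectin-1) binds fungal beta-glucan. Trem1 and Trem3 signal through the adaptor DAP12, and Pirb encodes an inhibitory receptor for MHC class I molecules.

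The promoters of the genes that had a peak over their transcription start site (TSS) are shown for 5 genes that stand for the receptor, adaptor, lectin and TREM groups. Each is the 250 bases before the start in RefSeq (GRCm38.p6), written 5′ to 3′ on the gene's strand. The peaks themselves are placed on mm9, and positions were not carried from one build to the other. Capitals mark matches, on either strand, to GAGGAA, the core bound by the myeloid factor PU.1, and to TTNNGNAA, a loose form of the C/EBP motif.
Fcgr3 (chr1:171059404-171059653, minus strand): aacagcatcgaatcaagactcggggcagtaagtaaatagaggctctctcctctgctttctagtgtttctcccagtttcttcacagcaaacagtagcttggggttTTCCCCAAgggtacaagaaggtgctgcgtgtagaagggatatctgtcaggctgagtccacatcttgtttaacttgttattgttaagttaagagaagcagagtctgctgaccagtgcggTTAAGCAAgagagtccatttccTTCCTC
Fcer1g (chr1:171234350-171234599, minus strand): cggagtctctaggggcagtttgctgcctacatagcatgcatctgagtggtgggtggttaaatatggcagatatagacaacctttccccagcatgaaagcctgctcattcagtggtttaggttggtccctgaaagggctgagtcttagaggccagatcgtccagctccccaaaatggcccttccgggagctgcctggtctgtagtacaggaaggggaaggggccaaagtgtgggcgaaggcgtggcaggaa
Clec4d (chr6:123261857-123262106, plus strand): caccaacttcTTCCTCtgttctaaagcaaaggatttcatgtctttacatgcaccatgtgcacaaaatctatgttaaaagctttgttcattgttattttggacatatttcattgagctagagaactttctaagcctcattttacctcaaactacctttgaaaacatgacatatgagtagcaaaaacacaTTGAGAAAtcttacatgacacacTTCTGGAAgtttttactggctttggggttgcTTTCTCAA
Clec4e (chr6:123289872-123290121, minus strand): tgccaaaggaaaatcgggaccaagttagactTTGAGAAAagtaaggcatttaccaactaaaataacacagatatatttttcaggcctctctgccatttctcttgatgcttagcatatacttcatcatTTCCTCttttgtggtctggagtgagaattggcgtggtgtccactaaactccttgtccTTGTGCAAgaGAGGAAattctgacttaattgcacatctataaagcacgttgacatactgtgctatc
Trem1 (chr17:48232489-48232738, plus strand): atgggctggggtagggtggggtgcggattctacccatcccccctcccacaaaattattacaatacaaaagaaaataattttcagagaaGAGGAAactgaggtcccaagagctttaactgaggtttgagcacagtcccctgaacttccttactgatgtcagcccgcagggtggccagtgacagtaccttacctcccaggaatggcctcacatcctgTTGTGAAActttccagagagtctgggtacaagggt
A window was found for 9 of the 10 genes. GAGGAA was present in 7 of these 9 windows and in 23.3% of all 32851 windows of the same length, and TTNNGNAA in 6 of 9 and in 36.8% of all. The AP-1 motif TGANTCA was in 0 of 9 and in 6.75% of all. The Clec4e window holds a C/EBP match at -66 and a GAGGAA match at -56, counted from the TSS to the first base of the match, and the Fcgr3 window holds a GAGGAA match at -6. In the Pirb window the GAGGAA match at -120 overlaps the C/EBP match at -122. By the deposited distances, the peak nearest the start covered all 250 bases of the window at Fcer1g, Clec4d and Clec4e, 199 at Trem1 and 128 at Fcgr3. Of the windows not shown, a peak covered 204 bases at Pirb and 0 at Fcgr4, Clec7a and Fcgr2b. The Fcgr4 and Clec7a windows are among those with GAGGAA, so the counts are not of open promoters alone. These matches are descriptions of letters and not of bound sites.

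The values are a normalised signal per peak deposited by the authors. With 1 step of a library's values read as 1 read, the KO libraries held 6182922 and 7930547 reads in all peaks and the WT libraries 3577922 and 3803711, so depth moved with genotype. Its part in the results below was not tested. The member peaks held a median of 178.5 and 228 reads in the KO libraries and 133 and 119.5 in the WT libraries, with a lowest value of 9 reads in WT replicate 2. As a check of the labels, the 2 intronic peaks of Morrbid, listed as Gm14005, stood at 1 step in both KO libraries, against 166 and 154, and 120.3 and 119.7, in the WT libraries. Of 18 neutrophil marker genes, 14 had a peak, with a summed signal of 10001 and 10304 in KO and 9839 and 8523 in WT, whereas Ly6g, Elane, Mpo and Prtn3 had none. Of their 33 peaks limma called 6 higher and 3 lower in KO, or 27.3%, against 10.6% of all peaks, and the part of this difference in the results below was not tested. Of 12 listed monocyte and macrophage symbols, markers of cells that also use Fc receptors and C-type lectins, 8 had a peak, with a sum of 2989 and 3229 in KO and 3286 and 3060 in WT. Mertk and Irf8 were among those with no peak, and limma called 0 of the list's 19 peaks, with 0 at an unadjusted p under 0.05. Of 10 B cell markers 1 had a peak (summed 427 and 439 in KO, 396 and 399 in WT). Of 13 T and NK cell markers 5 had one, namely Cd3d, Gata3, Klrb1c, Eomes and Tbx21 (2372 and 2367 in KO, 2168 and 2157 in WT). In both lists the KO sums were the higher. Cd3e, Cd3g, Cd4, Cd8a, Cd2, Tcf7, Bcl11b and Ncr1 had no peak. Peaks were also assigned to 5 of 12 eosinophil and basophil symbols (569 and 550 in KO, 622 and 507 in WT), 6 of 9 dendritic cell markers (2553 and 2566 in KO, 2394 and 2739 in WT) and 6 of 14 erythroid and stem cell markers (4641 and 4415 in KO, 4467 and 4299 in WT). Of the 38 erythroid and stem cell peaks 2 were called higher and 1 lower. Limma called none in the B, T and NK, eosinophil and basophil or dendritic lists, which held 5, 6, 8 and 21 peaks. At an unadjusted p under 0.05 by limma there were 1, 3, 0 and 3 of these, where 26.2% of all peaks were. In the T and NK list that share was 50%, with 2 peaks higher and 1 lower. A lower share of cells of one type and a lower accessibility per cell cannot be told apart in bulk libraries.

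The loss of Morrbid came with a called difference at 1 of the 26 peaks, a distal one near Fcgr4, and at no promoter. Among the 26 peaks, limma called 1 lower and 0 higher in KO at an adjusted p below 0.05, against 4.55% of all peaks called lower and 6.08% called higher. The share of member peaks called lower, 3.85%, lay near that background and is no result about these genes. At an unadjusted p under 0.05, 2 member peaks were higher and 5 lower, together 26.9% of the 26, where the share over all peaks was 26.2%. Both KO libraries lay above both WT libraries in 7 member peaks (28.0% of all peaks did so) and below them in 10 (27.3% of all peaks). The median log2 fold change (KO over WT, on log2(signal + 1)) was -0.11 over the members and -0.00189 over all peaks. Negative values numbered 17 of the 26 among the members and 11855 of 23595 over all peaks. After median centring the 2 medians were -0.0429 and 0.0649, and under total scaling -0.164 and -0.0564. The member median also moved with single libraries, to -0.0103 without WT replicate 1 and -0.189 without WT replicate 2. The ratio of mean signals (KO over WT) ran from 0.540 to 1.37. Limma's 95% interval lay within a 1.5-fold change for 13 of the 26 peaks and for 40.4% of all peaks. It lay within a 2-fold change for 23 of the 26, a count with no share over all peaks to set beside it. The median standard error (SE) was 0.177 over the members and 0.202 over all peaks. With 2 libraries a group, an exact permutation test of a single value cannot give a two-sided p below 0.333, so the model across all peaks is the test used throughout. The count of calls depended on single libraries. Among the members, as among all peaks, it fell without either KO library and rose without either WT library. A fit with a lone library takes its spread from the other genotype's pair. Calls given below for single peaks without a WT library come from such fits, in which more of all peaks were called.

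**Figure D1:**
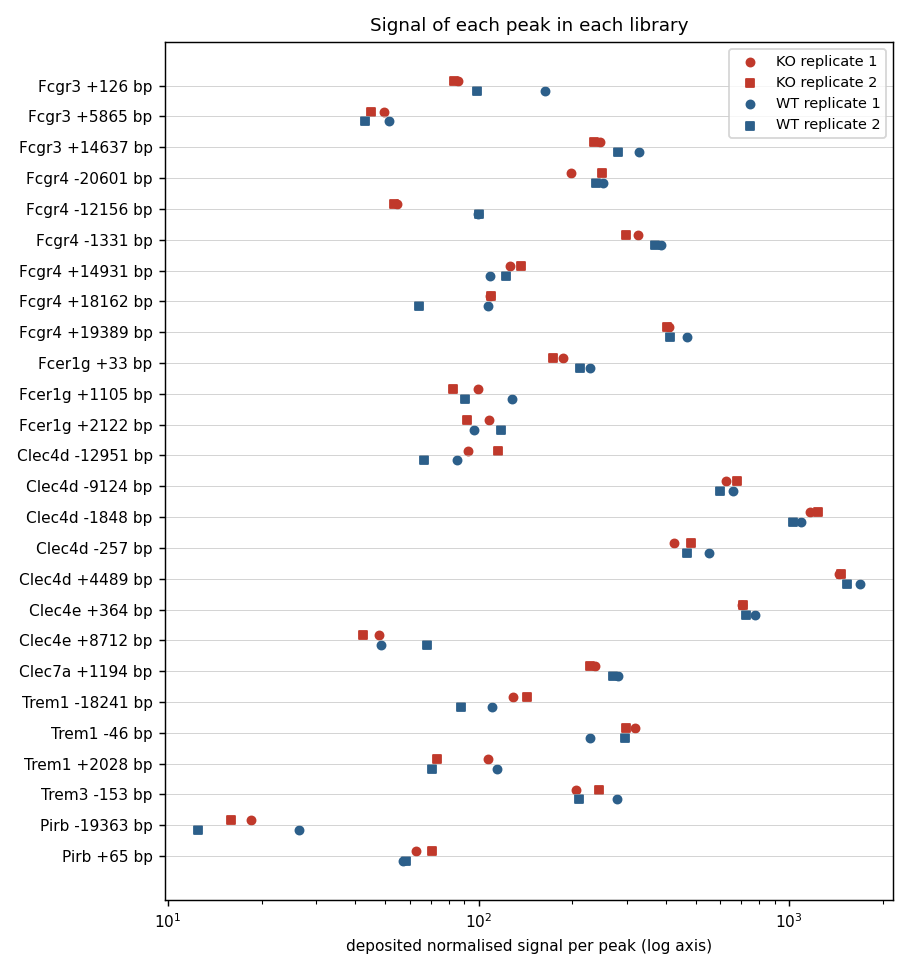
Deposited normalised signal (log axis) of each of the 26 peaks in each library, one row per peak, labelled by gene and distance from the TSS, with KO in red above WT in blue and the replicates as circles and squares. The Clec4d intronic peak reaches the highest values, up to 1694 in WT replicate 1, and only at the Fcgr4 peak at -12156 bp do the groups stand apart by a called difference.

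**Figure D2:**
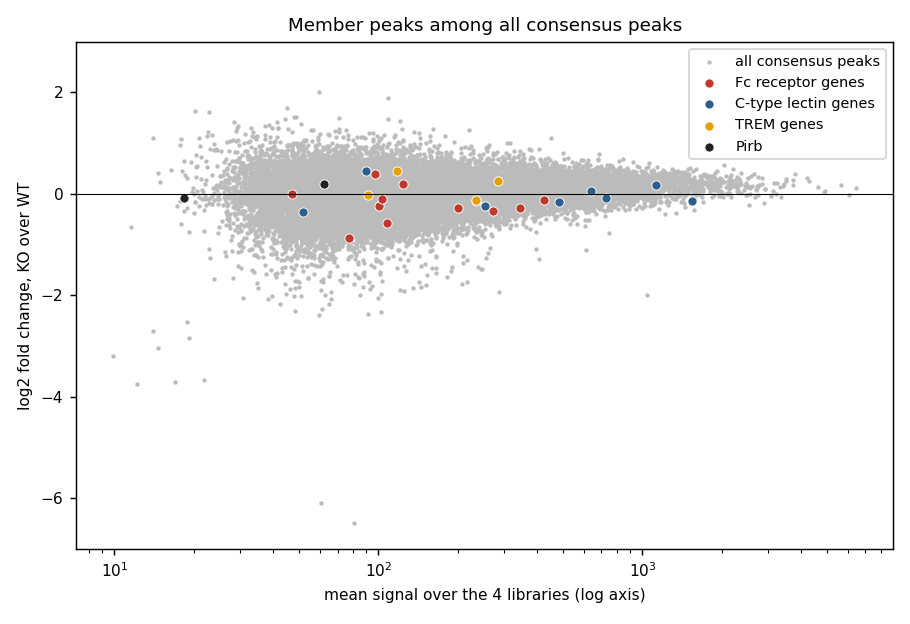
Log2 fold change (KO over WT) against the mean signal of the 4 libraries (log axis) for all 23595 consensus peaks in grey and for the 26 member peaks in colour by gene group. The coloured points lie inside the grey cloud, from -0.88 to 0.46.

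The called peak lay at Fcgr4, which encodes FcγRIV. This intergenic peak, at positions 172936587 to 172937216 of chromosome 1 (mm9), is centred at -12156 bp from the Fcgr4 TSS. In the RefSeq gene order its side of Fcgr4 faces Fcgr2b, with 2 non-coding genes, Gm34968 and Gm10522, between them. Its signal was 54.7 and 53.3 in the KO libraries, against 99.8 and 100.2 in the WT libraries. Both KO values were low and the groups did not overlap. The signal fell to 54.0 ± 0.991 in KO, against 100.001 ± 0.291 in WT (SD, n = 2 each), a ratio of 0.540 (log2 fold change -0.88, SE 0.242, 95% interval -1.37 to -0.38, limma's adjusted p = 0.0211). It held 139 reads over both KO libraries and 140 over both WT libraries, a depth-adjusted ratio of 0.519 with an exact 95% interval for counting error from 0.408 to 0.661. It was a weak peak, at the 28.4th percentile of all peaks by mean signal and the 8.99th per kb of length. The size of the difference was nearly the same without KO replicate 1 (log2 fold change -0.89) or 2 (-0.86), but the call was lost in both cases (limma's adjusted p = 0.167 and 0.215), and also in limma without a mean-variance trend (0.0969).

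The other 5 Fcgr4 peaks were not called. None covered the TSS, and the nearest was centred at -1331 bp. There the KO libraries had 326 and 297 and the WT libraries 386 and 370. The groups did not overlap, with KO the lower, and the log2 fold change was -0.28 (95% interval -0.54 to -0.02, adjusted p = 0.151). The peak at -20601 bp had a signal of 198 and 250 in KO and 251 and 238 in WT, with overlapping groups. The peak at 14931 bp had 126 and 137 in KO and 109 and 122 in WT, so both KO libraries were the higher. There and at 18162 bp the log2 fold changes were 0.19 and 0.39, the only positive ones at Fcgr4. At 18162 bp both KO libraries stood at 109, against 107 and 64.0 in WT, so that the difference lay between WT replicate 2 and the rest. Without WT replicate 1 this peak was called higher (log2 fold change 0.76, adjusted p = 0.0144). The peak at 19389 bp, the strongest of the 6 by mean signal, had 409 and 404 in KO and 468 and 413 in WT (log2 fold change -0.11, 95% interval -0.35 to 0.12).

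Fcgr3, which encodes FcγRIII, had 3 peaks and none was called. The peak over its TSS, at 172989154 to 172989662 of chromosome 1, lies on the first exon. Its signal was 85.7 and 83.1 in KO, against 162.9 and 98.8 in WT. Both KO libraries were lower than both WT libraries, but the WT libraries differed from each other by more than the lower of them differed from KO. The log2 fold change was -0.58 (SE 0.231, 95% interval -1.06 to -0.11, adjusted p = 0.102), and it was -0.94 without WT replicate 2 (adjusted p = 0.00147) and -0.23 without WT replicate 1. The intergenic peak downstream of the gene, at 14637 bp, had 245 and 236 in KO and 329 and 281 in WT (log2 fold change -0.34, 95% interval -0.63 to -0.05, adjusted p = 0.122). Its groups did not overlap either, with KO the lower, and it was called without WT replicate 2 (-0.45, adjusted p = 0.0256). The small intronic peak at 5865 bp was level, at 49.5 and 45.0 in KO and 51.4 and 43.1 in WT. Fcgr genes share closely related sequence, so reads may be divided between copies.

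Fcer1g, the gamma chain on which FcγRIII and FcγRIV depend, had 3 peaks within its first intron and promoter. Its promoter peak, at 173164152 to 173164742 of chromosome 1, had a signal of 186 and 173 in KO, against 227 and 212 in WT. The groups did not overlap and KO was the lower, and the difference did not pass (log2 fold change -0.29, SE 0.158, 95% interval -0.61 to 0.04, adjusted p = 0.254). The intronic peaks at 1105 and 2122 bp had log2 fold changes of -0.24 and -0.11, and their groups overlapped. Over the 12 peaks of Fcgr3, Fcgr4 and Fcer1g, 9 log2 fold changes were negative, where 11855 of all 23595 were, and the median was -0.19. Both KO libraries lay below both WT libraries in 6 peaks and above them in 2, where 27.3% and 28.0% of all peaks did so. The 8 peaks of the C-type lectin genes had 5 negative values, a median of -0.11, and 4 peaks below and 2 above. The 4 peaks of the TREM genes had 2 negative values, a median of 0.11, and 0 peaks below and 2 above.

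Clec4d, which encodes MCL, was the most accessible of the genes, and none of its 5 peaks was called. Its intronic peak at 4489 bp, at 123215789 to 123217440 of chromosome 6, had a signal of 1447 and 1472 in KO, against 1694 and 1537 in WT. Both KO values were the lower, by a small amount (log2 fold change -0.14, 95% interval -0.29 to -0.00282, adjusted p = 0.182). The peak at -1848 bp had 1162 and 1242 in KO, against 1087 and 1029 in WT, so that here both KO libraries were the higher (log2 fold change 0.18, 95% interval 0.03 to 0.34, adjusted p = 0.124). At the same gene, these peaks thus lay on opposite sides of 0. Their calls turned with single settings: the intronic peak was called lower under cyclic loess (log2 fold change -0.32, adjusted p = 0.00724) and without WT replicate 2 (-0.21, 0.0122), and the upstream peak was called higher after median centring (0.25, 0.0316) and without WT replicate 1 (0.22, 0.0234). By mean signal they stood at the 99.1th and 97.9th percentiles of all peaks, and per kb of length the upstream peak, at the 99.6th percentile, was the higher.

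The promoter peak of Clec4d had 425 and 483 in KO and 552 and 468 in WT, with overlapping groups (log2 fold change -0.17, 95% interval -0.40 to 0.07). The peak at -9124 bp had 628 and 679 in KO and 659 and 600 in WT, again overlapping. The weaker peak at -12951 bp had 92.7 and 115 in KO against 85.1 and 66.8 in WT. Here both KO libraries were higher, with a log2 fold change of 0.45 that did not pass (95% interval -0.03 to 0.93, adjusted p = 0.222).

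At Clec4e, which encodes Mincle, a broad peak of 1666 bp covered the TSS and part of the first intron. Its signal was 706 and 708 in KO and 775 and 724 in WT (log2 fold change -0.08, 95% interval -0.27 to 0.10, adjusted p = 0.601). Both KO values were slightly the lower, and the interval lay within a 1.5-fold change in either direction. The peak at the transcription end, 8712 bp from the TSS, was weak, at 47.7 and 42.3 in KO and 48.4 and 68.2 in WT (log2 fold change -0.35, 95% interval -0.95 to 0.25). Clec7a, the Dectin-1 gene, had a single peak, in its first intron at 129421176 to 129422026 of chromosome 6, and no peak over its TSS. The signal was 238 and 228 in KO, against 280.3 and 271 in WT. The groups did not overlap, with KO the lower, and the difference did not pass (log2 fold change -0.24, SE 0.141, 95% interval -0.53 to 0.05, adjusted p = 0.279).

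**Figure D3:**
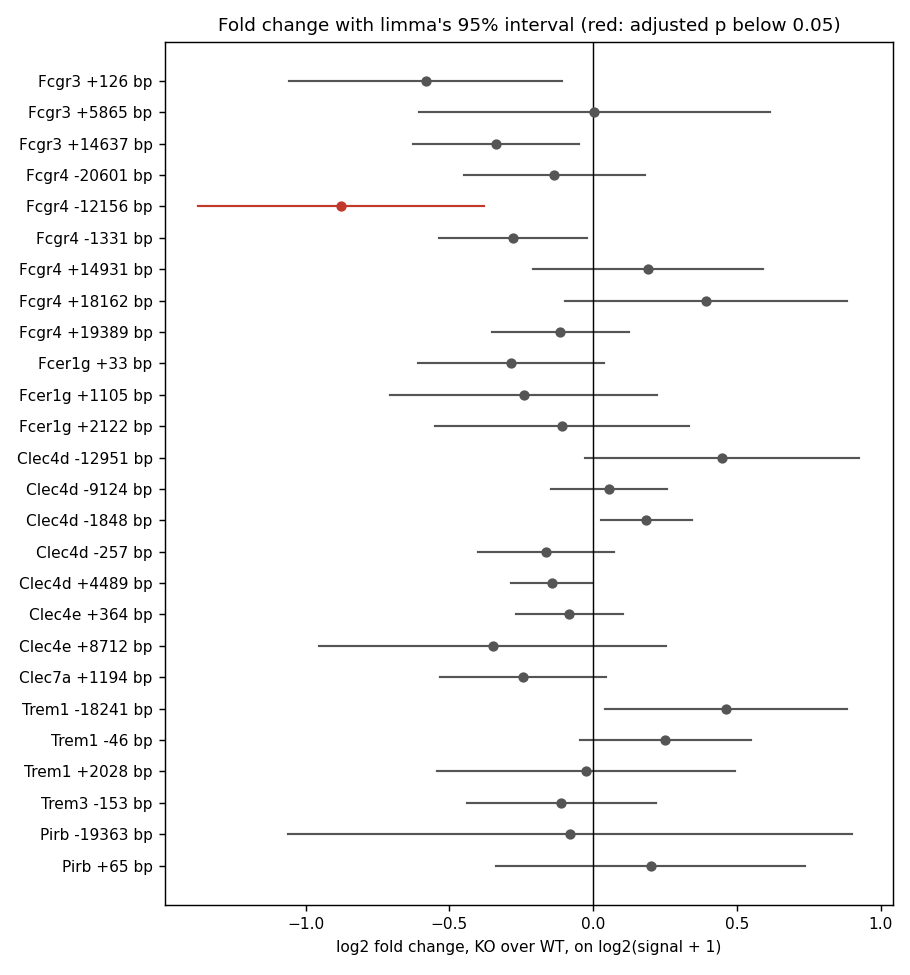
Log2 fold change (KO over WT) of each member peak, computed on log2(signal + 1), as a point with a bar for limma's 95% interval, red at the called peak. The interval of the Fcgr4 peak at -12156 bp runs from -1.37 to -0.38, and the weak Pirb peak at -19363 bp has the widest interval, from -1.06 to 0.90.

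Trem1 and Trem3, whose products signal through DAP12, had 4 peaks on chromosome 17 and none was called. The Trem1 promoter peak, at 48371705 to 48372010, had a signal of 319 and 298 in KO, against 227 and 295 in WT. Both KO libraries were the higher, but KO replicate 2 and WT replicate 2 lay close together (log2 fold change 0.25, 95% interval -0.05 to 0.55, adjusted p = 0.281), and the peak was called without WT replicate 2 (log2 fold change 0.44, adjusted p = 0.0276). The intergenic peak at -18241 bp had 129 and 143 in KO, against 110 and 87.7 in WT. Both KO values stood above both WT values, with the most positive log2 fold change of the 26 peaks, 0.46 (SE 0.204, 95% interval 0.04 to 0.88, adjusted p = 0.146), and it was called without WT replicate 1 (0.62, adjusted p = 0.0265). The intronic Trem1 peak at 2028 bp varied more between replicates than between genotypes, at 107 and 73.4 in KO and 114 and 71.0 in WT. The Trem3 promoter peak had 206 and 244 in KO and 279 and 210 in WT, with overlapping groups (log2 fold change -0.11, 95% interval -0.44 to 0.22).

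Pirb, the inhibitory receptor gene, had the least signal. Its promoter peak, at 3671651 to 3672187 of chromosome 7, had a signal of 62.7 and 70.7 in KO, against 57.2 and 58.5 in WT. Both KO libraries were the higher, and the difference did not pass (log2 fold change 0.20, 95% interval -0.34 to 0.74, adjusted p = 0.672). The peak at -19363 bp lies in an intron of another transcript (NM_001289428), and its 9 to 23 reads per library left a wide interval (-1.06 to 0.90). Pirb has near-identical neighbours among the Pira genes, so reads in both peaks may be shared with other copies.

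Summed over all peaks of a gene and divided by their length, the signal set the genes in a similar order in both genotypes. Clec4d came first, with 892 ± 38.3 per kb in KO and 896 ± 61.5 in WT (SD, n = 2 each, here and below), and Trem1 second, with 514 ± 27.5 in KO and 435 ± 1.16 in WT. Both stood clear of the next gene in either genotype. Clec4e had 377 ± 1.03 per kb in KO and 405 ± 11.1 in WT, and Trem3 had 348 ± 41.7 in KO and 378 ± 75.2 in WT. The antibody receptors and Dectin-1 followed, with Fcgr4 at 295 ± 4.91 per kb in KO and 325 ± 18.9 in WT, Fcgr3 at 281 ± 9.002 in KO and 365 ± 64.04 in WT, and Clec7a at 273 ± 7.97 in KO and 324 ± 7.41 in WT. The exchange of Fcgr3 and Fcgr4 between the genotypes rests on WT libraries that overlapped. The gamma chain gene Fcer1g had 232 ± 20.7 per kb in KO and 273 ± 14.04 in WT, and Pirb came last, with 95.2 ± 4.30 in KO and 87.7 ± 10.2 in WT. Neighbours in this order whose libraries overlapped were Clec4e and Trem3, and Fcgr3 and Clec7a, in KO, and the run from Clec4e to Clec7a in WT. The summed signal of both KO libraries lay below that of both WT libraries at 5 genes (Fcgr3, Fcgr4, Fcer1g, Clec4e and Clec7a), above it at Trem1, and overlapped at Clec4d, Pirb and Trem3. Over all 11693 genes with a peak, 30.2% lay below and 30.0% above. At Fcgr3 the sum was 381 and 364 in KO and 543 and 423 in WT, and at Trem1 555 and 514 in KO and 452 and 454 in WT.

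**Figure D4:**
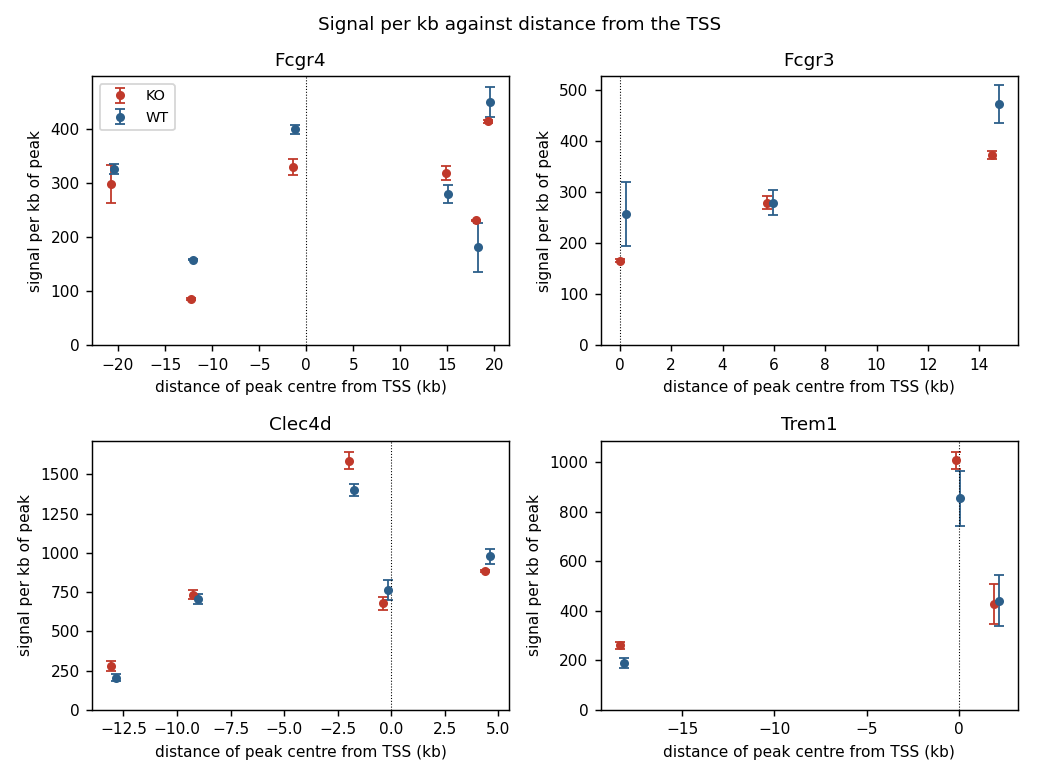
Signal per kb of peak against the distance of the peak centre from the TSS for Fcgr4, Fcgr3, Clec4d and Trem1, with KO in red left of WT in blue (points shifted slightly sideways), points as means and bars spanning the 2 libraries. Peaks away from the TSS can exceed those at it, as at Clec4d, where the peak at -1848 bp stands above the peak at -257 bp in both genotypes.

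Of the 26 member peaks, 7 covered a TSS. These had a median signal of 235 and a median length of 591 bp, against 249 and 834 bp for the 8341 peaks over a TSS in the whole table. The remaining 19 had a median signal of 117, against 91.1 for the other 15254 peaks. None of the 7 was called by limma, where 8.09% of all peaks over a TSS were higher and 5.59% lower. At an unadjusted p under 0.05 by limma, 1 of the 7 was lower and 0 higher. Of the 8341 peaks over a TSS, 1279 were lower and 1386 higher at that threshold.

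Calls were also counted at the genes around the members and in their pathway. Within 100 kb of a member peak lay 46 peaks of other genes, of which 1 rose and 3 fell (0 and 4 under total scaling, 4 and 2 after median centring). That was 8.70% of the 46, near the 10.6% of all peaks called in either direction, and is no result about these loci. The promoter peak of Cnot3, a deadenylase subunit, rose (log2 fold change 0.22, adjusted p = 0.0452). The peaks of Ufc1, a ubiquitin-fold modifier conjugating enzyme (-1.21, adjusted p = 0.00444), Tmc4, a transmembrane channel-like gene (-1.12, 0.00395), and the tRNA splicing gene Tsen34 (-0.70, 0.0449) fell. Ufc1 lies beyond Fcer1g on chromosome 1, and its peak had 39.7 and 39.5 in KO against 92.5 and 93.2 in WT. The calls of Cnot3 and Tsen34 were lost without either KO library, that of Ufc1 without KO replicate 2 (adjusted p = 0.0636) and that of Tmc4 without KO replicate 1 (0.0993), and that of Tsen34 also without WT replicate 2 (0.192). Under total scaling and cyclic loess Cnot3 was not called (log2 fold changes 0.16 and 0.0438, adjusted p = 0.133 and 0.743), nor was Tsen34 after median centring and under cyclic loess (0.0652 and 0.0942). Among the genes whose peak nearest the TSS varied over the 4 libraries most like the called Fcgr4 peak, by the Euclidean distance of centred log2 signal among 10972 peaks, were E030002O03Rik (0.0685) and Mir1966 (0.0789). Such a match over 4 libraries rests on little and is a description.

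Among 48 further Fc receptor, C-type lectin and paired receptor genes, 29 had a peak, and of their 61 peaks 3 rose and 0 fell by limma. Thus 4.92% of the list's peaks were called higher and 0% lower, where 6.08% and 4.55% of all peaks were. At an unadjusted p under 0.05 by limma, 7 were higher and 6 lower, together 21.3% of the 61, where 26.2% of all peaks were. The list's median log2 fold change was 0.03, and -0.03 under total scaling. Gp49a, a leukocyte Ig-like receptor gene with a close copy nearby, had 1021 and 1025 in KO against 788 and 722 in WT at a peak 752 bp from its TSS (log2 fold change 0.44, adjusted p = 0.00171). A peak at -13574 bp from Sirpb1a, a signal-regulatory protein gene, had 162 and 127 in KO against 86.6 and 76.5 in WT (0.81, adjusted p = 0.0156). A peak at 21285 bp from Cd300lb, an activating receptor gene, had 135 and 142 in KO against 82.2 and 97.4 in WT (0.62, adjusted p = 0.0489). In all of them both KO libraries were the higher. Without KO replicate 2 no call of this list passed (adjusted p = 0.066 at Gp49a, 0.0753 at Sirpb1a and 0.404 at Cd300lb), and those of Sirpb1a and Cd300lb were also lost without KO replicate 1 (0.35 and 0.293), and that of Cd300lb without WT replicate 1 (0.0698) and under total scaling (0.0751).

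All 29 listed genes for ITAM adaptors, kinases and downstream signalling had a peak, 86 in all. Of these peaks 5 rose and 1 fell (4 and 3 under total scaling), with a median log2 fold change of -0.08. That was 5.81% called higher and 1.16% lower, where 6.08% and 4.55% of all peaks were. The promoter of Cblb, a ubiquitin ligase that limits receptor signalling, had 656 and 666 in KO, against 415 and 436 in WT (0.63, adjusted p = 0.000352). A peak upstream of the adaptor gene Gab2 had 158 and 161 in KO against 71.9 and 84.9 in WT (1.02, adjusted p = 0.00217). The promoter of Bcl10, which acts with Card9 and Malt1 downstream of Dectin-1, rose by less (0.31, adjusted p = 0.00275). The other calls were in the genes of PI3-kinase subunits, with Pik3cb (0.53) and Pik3r1 (0.25) higher and the first-intron peak of Pik3cd (-0.89) lower (adjusted p = 0.0199, 0.0447 and 0.0245). Syk, Card9, Tyrobp, Lyn and Fgr had no called peak. The call of Cblb held without each library in turn, whereas those of Gab2 and Bcl10 were lost without KO replicate 2 (adjusted p = 0.0708 and 0.217) and those of Pik3cb, Pik3cd and Pik3r1 without either KO library. The call of Pik3r1 was also lost without WT replicate 2 (adjusted p = 0.1) and under total scaling (0.122). Cyclic loess ended the calls of Bcl10 (log2 fold change 0.11, adjusted p = 0.284), Pik3r1 (0.0932, 0.515) and Pik3cd (-0.80, 0.056).

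Of 46 peaks at 11 genes for phosphatases and adaptors of receptor signalling, 1 rose and 2 fell (3 and 0 after median centring). Their median log2 fold change was -0.07. In this list 2.17% of the peaks were called higher and 4.35% lower, where 6.08% and 4.55% of all peaks were. The phosphatase gene Ptprj (CD148) held calls in both directions. Its intronic peak 37927 bp from the TSS had 430 and 473 in KO against 298 and 316 in WT (0.55, adjusted p = 0.00471), and the peak over its first exon had 232 and 216 in KO against 266 and 390 in WT (-0.52, adjusted p = 0.0349). The promoter of Ptpn11, which encodes SHP-2, had 167 and 138 in KO against 204 and 242 in WT (-0.55, adjusted p = 0.0382). Both losses missed the threshold after median centring (adjusted p = 0.0618 and 0.0627) and without either KO library or WT replicate 2, that of Ptpn11 also under cyclic loess (0.0571), and the gain was lost without KO replicate 2 (adjusted p = 0.2). Ptpn6 and Inpp5d, the genes of SHP-1 and SHIP-1, had no called peak.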

How the data were processed

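ATAC-seq libraries of sorted neutrophils were grouped and numbered by their titles. The authors deposited a table with a normalised signal per consensus peak and library and the nearest gene, per the file headers. The tools in the submitters' processing notes are HOMER, BWA, DiffBind, MACS2 2.1.0, Trimmomatic 0.32, R 3.1.1 and bcl2fastq 2.16.0, with the mm9 build and no stated roles. Nothing is said there of duplicates, of a shift for the Tn5 offset or of how the consensus was formed. Each library's values lay on whole steps (94380 of 94380 within 0.001). What 1 read is worth is not stated, and no count model was run. Peak widths are listed 2 bases above end minus start, which may put a start off by a base or so.

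A two-sided test of KO against WT was made by limma 3.58.1 (R 4.3.3) over all peaks, on log2(signal + 1) with the trend of variance on signal fitted, with genotype as the only term, no filter on low signal and Benjamini-Hochberg adjustment over all peaks. A pseudocount of 1 understates the fold change of weak peaks. The procedure was tested on simulated libraries in which 200 of 23595 peaks were changed. It called 88% of the 2-fold and 44% of the 1.5-fold changes, with 7 false calls. The spread between simulated replicates was assumed and not estimated from these libraries. The members, lists and alternatives were chosen with earlier results of these data known. Named peaks were all member peaks, up to 6 called peaks per list of lowest p, called neighbours within 100 kb, and the 3 genes most like the called member peak (mean signal of at least 50), 1 of which is not reported here. List genes were matched by symbol or RefSeq gene ID (GRCm38.p6). No per-sample column was left unused. The alternatives were other pseudocounts, a signal filter, other scalings, no trend, a replicate term, single libraries left out, a stricter threshold and other distances. Figures used matplotlib 3.10.9.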

Additional observations from a re-analysis of the deposited data

How the results depend on the processing

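The count of called member peaks (1) was the same with a pseudocount of 0.5 or 10, with a minimum mean signal of 50 and under total scaling. It was 2 after median centring and under cyclic loess, and 0 without a mean-variance trend, at an adjusted p below 0.01 and among the peaks within 10 kb of the TSS. Without a mean-variance trend 22 of all peaks were called, against 2508, and 0 in each of the lists and among the neighbouring peaks. At an adjusted p below 0.01 the counts were 869 of all peaks and 2 of the neighbouring peaks. In the related receptor list, the ITAM signalling list and the phosphatase and adaptor list they were 1, 3 and 1. Cyclic loess left 2 neighbouring peaks and 3 of the ITAM signalling list, and within 50 kb 2 neighbouring peaks were called. Calls were fewer without a KO library and more without a WT library: among all peaks they numbered 588 and 422 without KO replicates 1 and 2, and 4799 and 3830 without WT replicates 1 and 2. Leaving out 1 library gave 0 to 5 calls among the members, 1 to 10 among the neighbouring peaks, and 0 to 9, 1 to 17 and 0 to 8 in the 3 lists. The cause of these changes was not tested. Higher calls made up 57.2% of all calls as deposited, 74.3% after median centring and 40.0% under total scaling.

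Small log2 fold changes changed sign. Under total scaling the Fcgr3 peak at 5865 bp was at -0.0505 and the Clec4d peak at -9124 bp at -0.000477. Cyclic loess gave -0.0665 at that Clec4d peak and 0.0647 at the Trem1 peak at 2028 bp, which median centring put at 0.0417. With single libraries left out the ranges were -0.30 to 0.0333 for Fcgr4 at -20601 bp, -0.12 to 0.13 for Fcgr3 at 5865 bp, -0.25 to 0.0350 and -0.49 to 0.00381 for Fcer1g at 2122 and 1105 bp, -0.37 to 0.32 for Trem1 at 2028 bp, -0.31 to 0.0917 for Trem3 at -153 bp, -0.0132 to 0.12 for Clec4d at -9124 bp and -0.59 to 0.43 for Pirb at -19363 bp. None of these was called. Same-numbered libraries shared little deviation from their group means across peaks (correlation -0.0392). That value cannot show whether the libraries were prepared as pairs. With the replicate block 1 member peak and 2935 of all peaks were called, and the lists and neighbours had 3, 7, 3 and 5 calls. The distal Pirb peak, with 9 to 23 reads per library, had the widest interval of the member peaks.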
